A study of Homo sapiens with 10 samples.

Results

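The genes described here encode the kinetochore, the protein structure that joins a chromosome to spindle microtubules, and the spindle checkpoint that watches this attachment. They were chosen by name as 40 symbols of known subunits, with earlier results of these data known. Of these, 39 had at least 1 probe set annotated with that gene alone, out of 19775 such genes on the array, and each was read from its brightest probe set over the 10 arrays. CENPP had only a probe set that it shares with another gene, and SGOL1 and SGOL2 are given under their current symbols SGO1 and SGO2. RNA of K562 cells, an established human line from chronic myeloid leukaemia with a BCR-ABL1 fusion, was compared with RNA of the microvesicles shed by the same line. Each group had 5 Affymetrix arrays from 5 independent experiments. The labels give no treatment, and they do not say whether a cell and a microvesicle array with the same number came from 1 culture, and the p-values reflect variation among preparations only.

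A kinetochore is built in layers on centromeric chromatin. The inner layer, the constitutive centromere-associated network, sits on nucleosomes that hold CENP-A. It carries the Mis12 and Ndc80 complexes, and Ndc80 binds the microtubule. Kinetochores without proper attachment recruit checkpoint kinases and MAD2 and hold back the anaphase-promoting complex, while the chromosomal passenger complex releases faulty attachments. In dividing cells many of these mRNAs accumulate towards mitosis, and K562 cells divide continuously in culture.

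On the side of the arrays as a whole, the erythroid markers measured for this line (GATA1, TAL1, KLF1, HBZ, HBE1 and TFRC) averaged 7.06 to 12.28 in cells on the log2 scale. In microvesicles 3 of the 6 (GATA1, TAL1 and TFRC) were lower and 0 higher, against 31.2% and 35.5% of all genes. Among genes with a mean of at least 6 over the 10 arrays, 63.8% were lower and 8.75% higher. After a loess curve by level was taken out, 1 marker was lower (TFRC) and 1 higher (HBE1), against 18.3% and 26.9% of all genes. The mean over the 6 markers was 9.35 to 9.81 on the cell arrays and 8.22 to 9.40 on the microvesicle arrays. Of 13 markers of lymphocytes, monocytes, fibroblasts and platelets, 10 were higher in microvesicles and 0 lower, against 35.5% and 31.2% of all genes. Except for CD3D and COL1A1, these markers averaged below 6 in cells. Of all probe sets with a mean below 6 over the 10 arrays, 43.1% were higher and 17.0% lower. After loess 2 of 4 lymphocyte, 1 of 2 monocyte, 2 of 4 fibroblast and 1 of 3 platelet markers were higher and 0 lower. The shares of all genes were then 26.9% higher and 18.3% lower. The mean over these 13 markers was 4.13 to 4.49 on the cell arrays and 4.65 to 5.0 on the microvesicle arrays, no marker is at 0 on this scale, and the brightest in cells was CD3D at 8.18, the next standing at 6.48. The difference between the 3' and 5' control probe sets of ACTB, which grows as RNA is shortened or labelled from its 3' end, averaged 2.39 ± 0.15 (SD) on the 5 cell arrays and 3.12 ± 0.34 on the 5 microvesicle arrays, with a 2-sided exact permutation p of 0.00794, the smallest that 5 against 5 allow. The same measure of GAPDH averaged 0.449 ± 0.064 and 0.62 ± 0.13, with an exact permutation p of 0.0159, and both adjusted values were 0.0159 over the 2 controls. The part of these differences in the results below was not tested.

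Kinetochore and checkpoint mRNAs were lower in microvesicles than in cells. Of 39 genes tested, 36 fell and 0 rose at a limma adjusted p under 0.05, where 31.2% of all genes on the array fell and 35.5% rose. The 3 others, CENPH, CENPN and CENPO, belong to the inner kinetochore. At an unadjusted p under 0.05 the counts were also 36 and 0, and an exact rank sum test gave 36 and 0, against 28.3% and 28.4% of all genes. The median change over the 39 genes was -1.14 on the log2 scale, microvesicles minus cells, against 0.20 over all genes. The falls of 25 genes were at least 2-fold and those of 10 at least 4-fold. How many of all genes fell by these sizes was not counted. For genes with a mean of at least 6 over the 10 arrays, the lower quartile of the change was -1.39. In 31 genes every microvesicle array lay below every cell array, a pattern seen in 26.1% of all genes.

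**Figure D1:**
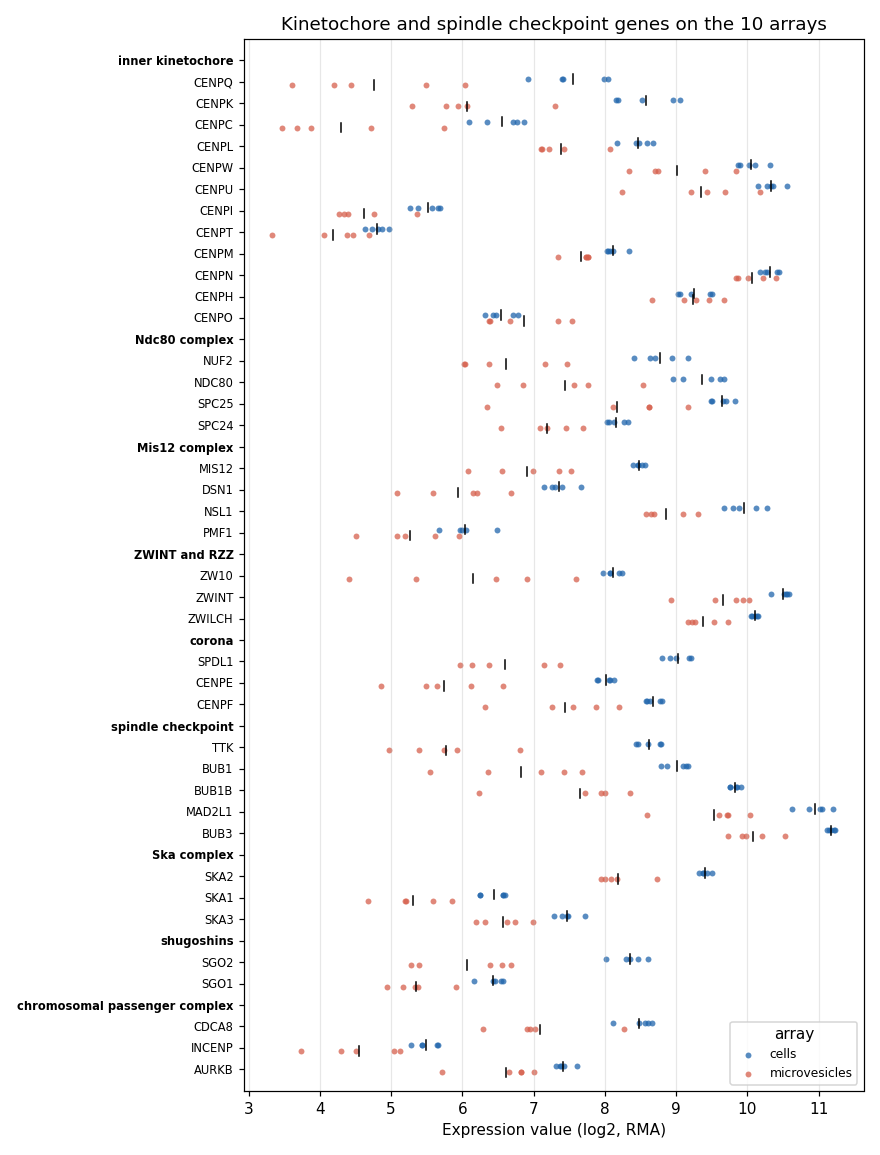
Expression values (log2, RMA) of the 39 genes on the 5 cell arrays and 5 microvesicle arrays, grouped by complex and ordered by change within it; each point is 1 array and each black bar a group mean. Microvesicle points lie left of the cell points without overlap in 31 genes, and CENPH, CENPN and CENPO show groups that lie over each other.

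Most of these genes gave a strong signal, and on these arrays genes of strong signal were more often lower in microvesicles. Among the 7074 genes with a mean of at least 6 over the 10 arrays, 63.8% fell and 8.75% rose, with a median change of -0.74. Of the 32 kinetochore genes above that level, 29 fell and 0 rose, with a median of -1.31. When a loess curve by level was taken out of each array, 21 of the 39 fell and 2 rose, against 18.3% and 26.9% of all genes, and the median was -0.58 against 0.15. A second quantile normalization gave 20 falls and 3 rises, against 16.5% and 26.5%, with a median of -0.66 against 0.21. In these bulk preparations, fewer cells or vesicles that hold a transcript and less of it in each cannot be told apart.

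**Figure D2:**
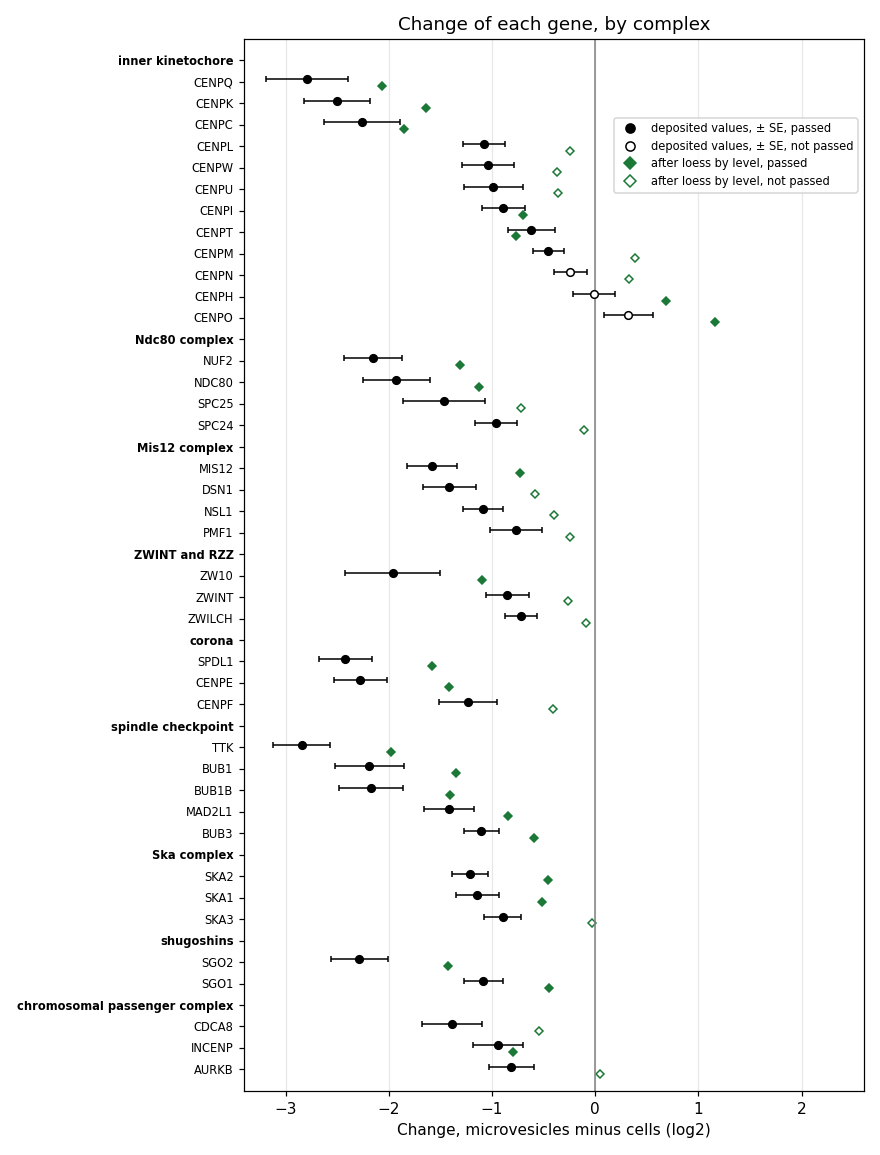
Change of each gene (log2, microvesicles minus cells) with its SE in the deposited values (circles) and after loess by level (diamonds); filled symbols passed the limma threshold. All 5 spindle checkpoint genes passed on both scales, whereas CENPH and CENPO, which did not pass in the deposited values, lay right of 0 and passed after loess. Of all genes, 31.2% were lower in the deposited values and 18.3% after loess.

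Promoters are shown because many of these genes shared letters there. Genes with peak expression in G2 and mitosis often carry a cell cycle genes homology region (CHR), an element bound by MuvB-containing complexes, and CCAAT boxes bound by NF-Y. RefSeq promoters (GRCh38.p14, 250 bases before to 50 after the start, first listed start of a gene) were found for 35 of the 40 genes. The CHR letters TTTGAA or TTCGAA, on both strands, were in 19 of these 35 promoters (54.3%), against 16.6% of all 27305 promoters of the same length. Within 50 bases of the start on either side they began in 17 (48.6%), against 5.05% of all. CCAAT, on both strands, was in 23 (65.7%), against 35.7% of all. The E2F letters TTTGGCGC, TTTCCCGC, TTTCGCGC or TTTGCCGC, on both strands, were in 2 (5.71%), against 3.33% of all. The median change was -1.39 over the 19 tested genes with the CHR letters and -1.09 over the 15 without, so falls were found on both sides. A match of letters is a description, not a bound site. The sequences below, 5′ to 3′ on the strand of the gene, are those of the largest fall and of the 1 positive change among genes with an entry, followed by the largest falls with CHR letters. They lie at chr6:49463120-49463419 (CENPQ, plus strand), chr2:24793175-24793474 (CENPO, plus), chr5:169583523-169583822 (SPDL1, plus), chr4:67545454-67545753 (CENPC, minus), chr2:110678014-110678313 (BUB1, minus) and chr15:40160819-40161118 (BUB1B, plus). Capitals mark the CHR letters and CCAAT wherever they occur on either strand, so that a match on the opposite strand is printed as TTCAAA or as ATTGG.
CENPQ: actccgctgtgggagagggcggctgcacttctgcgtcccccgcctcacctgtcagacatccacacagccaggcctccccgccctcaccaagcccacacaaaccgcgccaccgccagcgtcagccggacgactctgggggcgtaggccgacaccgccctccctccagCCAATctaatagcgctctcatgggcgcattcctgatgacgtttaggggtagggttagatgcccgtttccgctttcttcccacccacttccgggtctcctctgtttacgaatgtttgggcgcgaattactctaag
CENPO: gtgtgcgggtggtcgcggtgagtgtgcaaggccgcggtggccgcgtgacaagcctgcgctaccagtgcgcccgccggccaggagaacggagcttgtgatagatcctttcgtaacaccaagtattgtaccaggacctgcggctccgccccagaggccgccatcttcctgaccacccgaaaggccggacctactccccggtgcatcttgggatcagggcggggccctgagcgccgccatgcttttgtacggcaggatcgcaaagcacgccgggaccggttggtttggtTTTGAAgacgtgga
SPDL1: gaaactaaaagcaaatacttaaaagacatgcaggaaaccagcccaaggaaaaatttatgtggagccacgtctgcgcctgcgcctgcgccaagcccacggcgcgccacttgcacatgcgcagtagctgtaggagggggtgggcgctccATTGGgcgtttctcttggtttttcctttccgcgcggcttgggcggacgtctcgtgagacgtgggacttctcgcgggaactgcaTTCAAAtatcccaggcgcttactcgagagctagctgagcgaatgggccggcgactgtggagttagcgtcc
CENPC: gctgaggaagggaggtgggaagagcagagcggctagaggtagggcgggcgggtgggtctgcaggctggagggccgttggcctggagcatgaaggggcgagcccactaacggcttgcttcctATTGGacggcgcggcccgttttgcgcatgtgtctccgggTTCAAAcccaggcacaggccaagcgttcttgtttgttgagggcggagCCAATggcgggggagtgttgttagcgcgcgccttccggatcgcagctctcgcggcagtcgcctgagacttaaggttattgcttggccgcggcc
BUB1: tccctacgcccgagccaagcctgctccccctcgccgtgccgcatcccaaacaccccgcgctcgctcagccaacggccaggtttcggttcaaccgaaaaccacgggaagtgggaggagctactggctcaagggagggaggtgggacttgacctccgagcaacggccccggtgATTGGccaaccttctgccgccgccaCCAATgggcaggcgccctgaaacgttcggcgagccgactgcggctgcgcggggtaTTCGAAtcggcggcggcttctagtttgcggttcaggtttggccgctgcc
BUB1B: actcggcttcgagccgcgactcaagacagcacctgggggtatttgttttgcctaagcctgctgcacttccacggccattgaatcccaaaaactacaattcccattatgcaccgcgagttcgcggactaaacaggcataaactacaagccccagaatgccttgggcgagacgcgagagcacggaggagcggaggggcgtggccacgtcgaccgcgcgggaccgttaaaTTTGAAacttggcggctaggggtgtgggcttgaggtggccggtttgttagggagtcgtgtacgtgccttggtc
CENPQ, whose mRNA fell most among genes with an entry, had a CCAAT match and no CHR match in this window. CENPO, with a positive change that did not pass the threshold, had a CHR match. The sign of that change differed between the 2 probe sets of CENPO (0.32 and -0.20).

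All 5 spindle checkpoint genes fell, in the deposited values, after loess and after a second quantile normalization. The shares of all genes that fell in these settings were 31.2%, 18.3% and 16.5%. With a mean of at least 6 over the 10 arrays, as in these 5, 63.8% fell in the deposited values. The median change of the 5 genes was -2.17, and -1.35 after loess. TTK (chr6:80004649-80042527, GRCh38.p14), the kinase MPS1 that starts checkpoint signalling, fell most of all 39 genes in the deposited values of the brightest probe sets. After loess and after a second quantile normalization the largest fall was that of CENPQ (-2.07 and -2.30). The values of TTK were 8.61, 8.78, 8.77, 8.44 and 8.47 in cells, replicates 1 to 5, and 5.75, 5.92, 6.81, 4.97 and 5.40 in microvesicles. The groups were far apart, with the brightest microvesicle array well below the dimmest cell array. TTK changed by -2.84 ± 0.28 (SE; 7.18-fold lower, limma adjusted p = 3.09e-06), and by -1.98 after loess. The kinase BUB1, which marks kinetochores for the checkpoint proteins, read 8.88, 9.17, 9.10, 8.79 and 9.13 in cells and 7.68, 6.36, 7.10, 5.55 and 7.43 in microvesicles. Here microvesicle replicate 4 was lowest and replicate 1 highest. BUB1 changed by -2.19 ± 0.33 (4.55-fold lower, limma adjusted p = 0.000106). BUB1B encodes BUBR1, a part of the inhibitor of the anaphase-promoting complex, and stood at 9.75, 9.76, 9.86, 9.84 and 9.91 in cells and 8.35, 8.0, 7.95, 6.24 and 7.73 in microvesicles. Replicate 4 was again the lowest, by more than 1 log2 unit, and the change was -2.17 ± 0.31 (4.51-fold lower, limma adjusted p = 7.09e-05).

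The other checkpoint genes, MAD2L1 and BUB3, fell by less in the probe sets used. MAD2L1 encodes MAD2, which binds CDC20 when attachment is missing, and its values were 10.63, 11.20, 11.05, 10.86 and 11.01 in cells and 10.03, 9.61, 9.72, 8.59 and 9.73 in microvesicles. The change was -1.41 ± 0.24 (2.67-fold lower, limma adjusted p = 0.000271). BUB3 (chr10:123154402-123170467), the partner of BUB1 and BUBR1, read 11.18, 11.12, 11.15, 11.23 and 11.21 in cells and 10.53, 9.92, 9.98, 9.73 and 10.20 in microvesicles, without overlap. It changed by -1.10 ± 0.17 (2.15-fold lower, limma adjusted p = 0.000113), and by -0.59 after loess.

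The corona, the outermost layer that catches microtubules on unattached kinetochores, also fell in all 3 genes, where 31.2% of all genes fell. Its median change was -2.27. CENPE, a kinesin that carries chromosomes to the spindle equator, read 7.89, 8.13, 8.07, 7.90 and 8.06 in cells and 6.13, 5.48, 6.56, 4.86 and 5.64 in microvesicles. It changed by -2.27 ± 0.26 (4.84-fold lower, limma adjusted p = 1.18e-05), and by -1.42 after loess. SPDL1 (Spindly), the adaptor that brings dynein to kinetochores, stood at 9.0, 9.20, 9.18, 8.91 and 8.81 in cells and 7.37, 6.14, 7.15, 5.97 and 6.37 in microvesicles. All microvesicle arrays were more than 1 log2 unit below all cell arrays. The change of SPDL1 was -2.42 ± 0.26 (5.36-fold lower, limma adjusted p = 6.54e-06). CENPF, a large coiled-coil protein of the corona, changed by -1.24 ± 0.28 (limma adjusted p = 0.00204) and did not pass after loess (-0.41, adjusted p = 0.187).

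In the inner kinetochore the genes were split. Of 12 tested, 9 fell and 3 did not pass, and the changes ran from -2.79 to 0.32 with a median of -0.94. Of all genes 31.2% fell, and of those with a mean level of at least 6, 63.8% fell. After loess 5 of the 12 fell and 2 rose (median -0.37), against 18.3% and 26.9% of all genes. After a second quantile normalization 4 fell and 3 rose (median -0.48), against 16.5% and 26.5%. The largest falls came from CENPQ and CENPK, subunits of the network, and from CENPC, which ties centromeric nucleosomes to the Mis12 complex. CENPQ read 7.39, 8.04, 7.98, 6.92 and 7.41 in cells and 6.04, 4.20, 5.49, 3.61 and 4.43 in microvesicles, so that replicate 1 was the highest and replicate 4 the lowest. It changed by -2.79 ± 0.40 (6.93-fold lower, limma adjusted p = 6.60e-05). CENPK read 8.18, 9.05, 8.95, 8.15 and 8.52 and 5.94, 6.06, 7.30, 5.29 and 5.77, and changed by -2.50 ± 0.32 (5.66-fold lower, limma adjusted p = 3.00e-05). CENPC read 6.35, 6.77, 6.87, 6.09 and 6.72 and 5.75, 3.47, 3.68, 3.88 and 4.72, and its change was -2.26 ± 0.37 (4.79-fold lower, limma adjusted p = 0.000178). These 3 passed after loess as well, at -2.07, -1.64 and -1.86. CENPC averaged 4.30 in microvesicles, close to the mean array median of 4.26, and CENPQ replicates 2 and 4 lay below that median. The values carry no detection call, so the size of both falls is uncertain.

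CENPH, CENPN and CENPO did not pass. CENPH (chr5:69189583-69210357, GRCh38.p14), a partner of CENPK within the network, read 9.21, 9.48, 9.50, 9.02 and 9.06 in cells and 9.68, 9.12, 9.28, 8.66 and 9.47 in microvesicles. Its groups lay over each other, and the change was -0.01 ± 0.20 (limma adjusted p = 0.957), where CENPK had fallen 5.66-fold. After loess CENPH stood at 0.69 (adjusted p = 0.0053), and its only probe set is of the _x_at kind, whose probes may also match other transcripts. The probe sets used for CENPL and SKA1, which fell, are of the same kind. CENPO read 6.32, 6.47, 6.43, 6.78 and 6.71 and 6.67, 7.54, 6.39, 7.34 and 6.38, with microvesicle replicates 2 and 4 above all cell arrays and the others among them. CENPO changed by 0.32 ± 0.24 (limma adjusted p = 0.241), and after loess by 1.16 (adjusted p = 0.00252). Its other probe set, at 6.07 in cells, changed by -0.20 ± 0.19 (limma adjusted p over all probe sets = 0.365). The mean of both changed by 0.058 (limma adjusted p = 0.732). CENPN, which reads the CENP-A nucleosome, read 10.27, 10.17, 10.25, 10.44 and 10.42 and 10.41, 9.85, 10.01, 9.87 and 10.22. Its change was -0.24 ± 0.16 (limma adjusted p = 0.187) in the brightest probe set, and a dimmer one is given below. Differences between these genes and the rest were not tested.

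The other inner kinetochore genes fell by smaller amounts. CENPL, CENPW, CENPU and CENPI changed by -1.08 ± 0.20, -1.04 ± 0.25, -0.99 ± 0.28 and -0.89 ± 0.21, with limma adjusted p between 0.000509 and 0.00819. CENPL, CENPW and CENPU did not pass after loess (-0.24, -0.37 and -0.36, limma adjusted p = 0.261, 0.183 and 0.24) or after a second quantile normalization. CENPI passed in both, from a dim probe set with a mean of 5.07 over the 10 arrays. The changes of its 4 probe sets ran from -2.19 to 0.65. CENPW is the histone-fold partner of CENPT. CENPM, a GTPase-like subunit, changed by -0.45 ± 0.15 (limma adjusted p = 0.018), but by 0.39 after loess (adjusted p = 0.0528). After a second quantile normalization CENPM passed as a rise (0.42, limma adjusted p = 0.0382). In the deposited values without the array of cells replicate 4 its adjusted p was 0.0503. CENPT, which recruits Ndc80, changed by -0.62 ± 0.23 (limma adjusted p = 0.0281), with a dim probe set at 4.80 ± 0.13 in cells and 4.19 ± 0.52 in microvesicles (SD). Without cells replicates 1, 2 or 3 CENPT did not pass (adjusted p = 0.0522, 0.0576 and 0.0645), and the mean of its probe sets was 0.21 (adjusted p = 0.279). For CENPP, the shared probe set read 4.15, 3.93, 3.98, 4.21 and 4.06 in cells and 3.04, 4.28, 4.41, 4.06 and 4.37 in microvesicles, at the level of the array median. It changed by -0.03 ± 0.24 (limma adjusted p over all probe sets = 0.91) and cannot be assigned to CENPP alone.

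All 4 genes of the Ndc80 complex, the rod that holds the microtubule, fell by unequal amounts, where 31.2% of all genes fell. NDC80 read 9.49, 9.67, 9.61, 8.96 and 9.10 in cells and 8.53, 7.57, 7.76, 6.85 and 6.48 in microvesicles. NUF2, its partner in the microtubule-binding head, read 8.70, 9.16, 8.94, 8.41 and 8.63 and 7.16, 6.04, 6.37, 6.02 and 7.47. These 2 changed by -1.93 ± 0.32 (3.81-fold lower, limma adjusted p = 0.000241) and -2.16 ± 0.28 (4.46-fold lower, limma adjusted p = 3.33e-05), and both passed after loess (-1.13 and -1.31). SPC25 and SPC24 form the end that faces the chromosome. SPC25 read 9.49, 9.70, 9.50, 9.83 and 9.66 and 9.17, 8.62, 8.11, 6.34 and 8.62, so that replicate 4 lay far below the other microvesicle arrays, and changed by -1.46 ± 0.40 (limma adjusted p = 0.00618). SPC24 read 8.26, 8.13, 8.05, 8.32 and 8.02 and 7.70, 6.55, 7.09, 7.18 and 7.45, and changed by -0.96 ± 0.20 (limma adjusted p = 0.00119). After loess SPC25 and SPC24 did not pass (-0.72 and -0.11, adjusted p = 0.126 and 0.65). The mean of both SPC24 probe sets changed by -0.048 (limma adjusted p = 0.772).

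The Mis12 complex, which bridges the inner layer and Ndc80, fell in all 4 genes, with a median of -1.25, where 31.2% of all genes fell. MIS12 read 8.47, 8.57, 8.40, 8.52 and 8.46 in cells and 7.35, 6.08, 6.99, 6.56 and 7.53 in microvesicles. The cell arrays lay within 0.17 log2 units of each other, those of microvesicles spread over 1.45, and the change was -1.58 ± 0.24 (3-fold lower, limma adjusted p = 0.000119). DSN1 changed by -1.41 ± 0.26, NSL1 by -1.09 ± 0.19 and PMF1 by -0.77 ± 0.25, with limma adjusted p of 0.000436, 0.000317 and 0.0161. The groups of PMF1 overlapped, as microvesicle replicate 3 (5.95) was above cells replicate 3 (5.67). Of the 4 genes only MIS12 passed after loess (-0.73), and MIS12 and NSL1 after quantile normalization (-0.73 and -0.50).

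ZW10 and ZWILCH belong to the Rod-Zw10-Zwilch complex, which recruits Spindly and MAD1, and ZWINT links it to the outer kinetochore. ZW10 showed the widest spread of all members, with 8.24, 8.20, 8.06, 8.07 and 7.98 in cells and 7.60, 4.41, 6.47, 5.35 and 6.91 in microvesicles. Replicate 1 was only 0.38 log2 units below the lowest cell array while replicate 2 was more than 3 units below it, and the change was -1.96 ± 0.46 (limma adjusted p = 0.00236). ZWINT and ZWILCH changed by -0.85 ± 0.20 and -0.72 ± 0.15 (limma adjusted p = 0.0029 and 0.00133), and neither gene overlapped between groups. After loess they stood at -0.26 and -0.08 and did not pass (adjusted p = 0.241 and 0.632), and ZW10 passed narrowly (-1.10, adjusted p = 0.0498).

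The Ska complex, which keeps kinetochores on shrinking microtubule ends, fell in all 3 genes by similar amounts, where 31.2% of all genes fell. The changes were -1.21 ± 0.17 for SKA2, -1.14 ± 0.21 for SKA1 and -0.90 ± 0.18 for SKA3 (limma adjusted p = 6.16e-05, 0.000489 and 0.00085). After loess SKA1 and SKA2 passed (-0.51 and -0.45) and SKA3 stood at -0.03. Both shugoshins, which protect cohesin at the centromere, fell. SGO2 read 8.01, 8.47, 8.60, 8.30 and 8.36 in cells and 6.56, 5.39, 6.39, 5.28 and 6.68 in microvesicles. It changed by -2.29 ± 0.28 (4.88-fold lower, limma adjusted p = 1.79e-05), and SGO1 by -1.08 ± 0.19 (limma adjusted p = 0.000303). After loess they stood at -1.42 and -0.45 and passed, SGO1 narrowly (adjusted p = 0.0493).

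The chromosomal passenger complex fell in all 3 genes by less, with a median of -0.94, where 31.2% of all genes fell. AURKB, its kinase, read 7.61, 7.36, 7.38, 7.42 and 7.31 in cells and 7.0, 6.83, 6.66, 5.72 and 6.82 in microvesicles, with replicate 4 well below the rest. The change was -0.81 ± 0.22 (limma adjusted p = 0.00634), and 0.05 after loess. INCENP, the scaffold, changed by -0.94 ± 0.24 (limma adjusted p = 0.00428) and passed after loess (-0.79), from a dim probe set at 5.49 ± 0.16 in cells and 4.54 ± 0.57 in microvesicles (SD). CDCA8 (borealin), which docks the complex on the centromere, read 8.66, 8.56, 8.48, 8.60 and 8.11 and 8.27, 7.03, 6.96, 6.30 and 6.91. Microvesicle replicate 1 lay above cells replicate 5, so the groups overlapped. CDCA8 changed by -1.39 ± 0.29 (limma adjusted p = 0.00113), and by -0.54 after loess (adjusted p = 0.0919).

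The size of a change differed between probe sets of 1 gene. Signals of different probe sets do not compare amounts of RNA, and they are used here only to say how bright a probe set was. The genes had 73 probe sets of their own. Of these, 56 were lower and 6 higher at a limma adjusted p under 0.05, where 27.0% of all 54630 probe sets were lower and 35.4% higher. Of the 42 with a mean of at least 6 over the 10 arrays, 39 were lower and 0 higher, with a median change of -1.40. Of all 11848 probe sets at that level 63.2% were lower and 7.30% higher, with a median of -0.80. Of the 31 dimmer ones 17 were lower and 6 higher, against 17.0% and 43.1% of all 42782 dimmer probe sets, with medians of -0.62 and 0.44. All 6 higher probe sets belong to genes that also have a lower one (CENPI, CENPN, CENPT, SPC24, BUB1 and BUB3), and they averaged 2.45 to 4.83 over the 10 arrays.

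In 8 genes at least 2 probe sets reached a mean of 6 over the 10 arrays, a comparison chosen after the values were seen. In 6 of them the change of the brightest was the smallest in size, and BUB3 and SKA2 were the exceptions. ZWILCH changed by -0.72 ± 0.16 in the probe set at 10.10 in cells and by -2.36 ± 0.29 in that at 8.98. CENPN changed by -0.24 ± 0.16 at 10.31 and by -1.12 ± 0.17 at 7.41 (limma adjusted p over all probe sets = 0.206 and 0.000106). MAD2L1 changed by -1.41 ± 0.24 at 10.95 and by -2.06 ± 0.32 at 10.12. The 4 bright probe sets of BUB3 gave -1.10 ± 0.17, -0.77 ± 0.21, -1.49 ± 0.23 and -2.03 ± 0.20 at 11.18, 10.68, 9.70 and 9.11 in cells. SGO2 changed by -3.34 ± 0.37 in its dimmer probe set, against -2.29 ± 0.28 in the one used above. When only probe sets with a unique target were used, 30 of 33 genes fell and 1 rose, against 28.8% and 37.3% of all genes. The rise was that of BUB3, read there from a dim probe set (0.65), and SPDL1 stood at -0.29 and did not pass. Positions of the probe sets along the mRNAs were not analysed here.

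**Figure D3:**
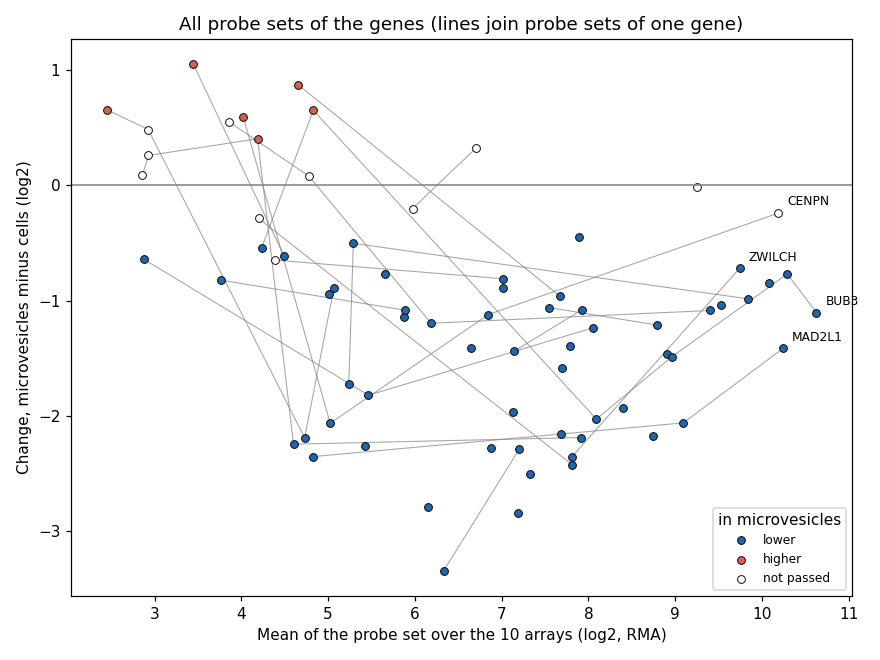
Change of all 73 probe sets of the genes (log2, microvesicles minus cells) against their mean over the 10 arrays (log2), coloured by the limma call; lines join probe sets of the same gene. The 6 higher probe sets average 2.45 to 4.83, and the brightest probe sets of CENPN and ZWILCH show smaller changes than their next brightest ones.

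The microvesicle preparations differed in how far these genes fell. The median difference of the 39 genes from their cell mean was -0.58, -1.34, -1.20, -1.70 and -1.26 on microvesicle arrays 1 to 5, while the cell arrays lay between -0.05 and 0.08. Replicate 1 was the highest microvesicle array for 27 of the 39 genes and replicate 4 the lowest for 21. All 39 genes had a larger SD in microvesicles than in cells, with medians of 0.57 and 0.17. The same counts were not made over all genes, so whether this spread is particular to these genes was not tested. The 3' minus 5' difference of ACTB was 2.72, 2.93, 3.20, 3.64 and 3.13 on the same 5 microvesicle arrays, smallest on replicate 1 and largest on replicate 4. Its part in the spread was not tested. Without microvesicle replicate 1 the median change of the genes was -1.28 and without replicate 4 it was -1.03. In both cases 36 genes fell and 0 rose, against 31.6% and 36.2% of all genes without replicate 1 and 31.2% and 35.0% without replicate 4.

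**Figure D4:**
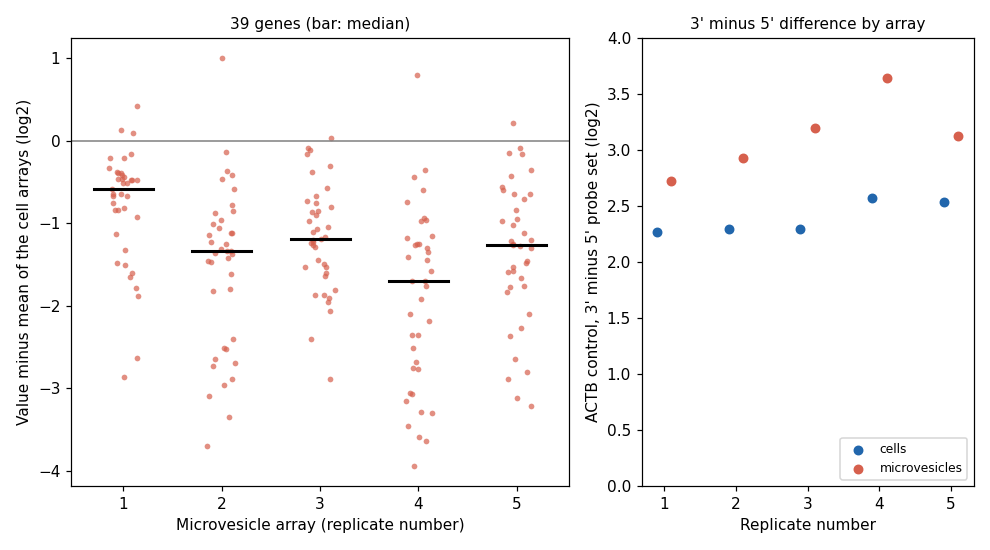
Left, value of each of the 39 genes on each microvesicle array minus its mean over the cell arrays (log2; bar, median of the genes). Right, difference between the 3' and 5' ACTB control probe sets (log2) on each array; replicate 1 has the smallest fall (-0.58) and smallest microvesicle control difference (2.72), replicate 4 the largest of both (-1.70 and 3.64).

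Genes that work with these complexes were read from 3 further lists. Of 22 centromere and kinetochore partners tested, 13 fell and 0 rose (median change -0.93), against 31.2% and 35.5% of all genes. Loess left 6 falls and 7 rises, against 18.3% and 26.9% of all genes, so the rises were near that share. The largest falls were those of KNTC1, which encodes the Rod subunit that joins ZW10 and ZWILCH, and of KIF18A, a kinesin that dampens chromosome movements. They changed by -3.19 ± 0.17 and -3.03 ± 0.31 (limma adjusted p = 1.10e-07 and 5.02e-06). KIF18A averaged 3.79 in microvesicles, below the mean array median of 4.26, so the size of its fall and its place in the order are uncertain. KNTC1 read 8.48, 8.56, 8.60, 8.35 and 8.58 in cells and 5.44, 5.68, 5.37, 5.23 and 4.89 in microvesicles, with the microvesicle arrays closer together than for ZW10 and all far below the cell arrays. Cohesin and separase genes gave 14 falls and 0 rises of 15 and a median of -1.14, with 7 falls and 1 rise after loess, against the same shares of all genes. PDS5B and WAPL, regulators of cohesin on chromatin, changed by -2.62 ± 0.25 and -2.08 ± 0.26 (limma adjusted p = 2.48e-06 and 2.55e-05). The mean of all probe sets changed by less, -0.88 for the 6 of PDS5B and -1.58 for the 4 of WAPL.

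The last list holds the anaphase-promoting complex, the target of the checkpoint. Of 17 genes 9 fell and 1 rose, with a median of -0.60, against 31.2% and 35.5% of all genes. After loess 4 fell and 4 rose with a median of 0.12, close to the 18.3% and 26.9% of all genes. ANAPC4 and ANAPC10 changed by -2.28 ± 0.33 and -2.02 ± 0.39 (limma adjusted p = 7.02e-05 and 0.000672). The rise was that of FZR1, which encodes the activator CDH1. FZR1 read 6.13, 6.06, 5.95, 5.97 and 6.05 in cells and 7.39, 7.31, 7.53, 7.24 and 8.08 in microvesicles, with all microvesicle arrays above all cell arrays. It changed by 1.48 ± 0.18 (limma adjusted p = 1.57e-05), and by 2.32 after loess. The mean of the 4 FZR1 probe sets changed by 0.77 (limma adjusted p = 0.00231).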

How the data were processed

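Each deposited column holds log2 expression of the probe sets of the Affymetrix HG-U133 Plus 2.0 array. Per the submitters' processing notes, RMA was used. RMA subtracts background, equalises probe intensities between arrays and summarises probes, so a different total amount of RNA in microvesicles is not visible. In the deposited values the array medians over all probe sets still differed, at 4.08 to 4.12 in cells and 4.22 to 4.28 in microvesicles. The reason for this difference was not tested. Neither its version nor its options were given in the sources used here. Values carry no detection call, and the number of arrays limits the precision. Of 54630 probe sets 41091 carry 1 gene in the platform annotation, 1801 several and 11721 none, and 41037 of these were named through the gene number in RefSeq (GRCh38.p14). The brightest of a gene's probe sets over 10 arrays gave 19775 genes.

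Microvesicles were compared with cells by limma 3.58.1 (lmFit and eBayes, R 4.3.3) as a 2-sided test of 2 group means, and p-values were adjusted by Benjamini-Hochberg for 19775 genes, with a threshold of 0.05, with no filter on dim genes. Changes are microvesicles minus cells ± SE. The fit was checked on simulated data. Alternatives were a replicate block, median centring, a second quantile normalization, loess by level, level filters, other probe set rules, a variance trend, array weights, an exact rank sum test and leaving out each array. All members were named, and from each partner list at most 2 falls and 2 rises. The members and lists were chosen with earlier results of these data known.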

Additional observations from a re-analysis of the deposited data

Results flagged for a closer look

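Within groups of 5 arrays, 3 of 82 groups tested had 1 array far from the others, where chance gives about 1 in 20. CENPM in microvesicles had replicate 2 at 7.34, with the next array at 7.73. ZWINT in cells had replicate 4 at 10.32, with the next at 10.52. AURKB in microvesicles had replicate 4 at 5.72, with the next at 6.66.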

How the results depend on the processing

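The count of 36 falls and 0 rises and the median change of -1.14 moved most with the scaling by level. The second quantile normalization gave 20 falls and 3 rises with a median of -0.66, and loess by level gave 21 falls and 2 rises with a median of -0.58. Of the 36 genes, 19 were lower in the deposited values and in both of these. Under the quantile setting CENPH (0.60), CENPM (0.42), CENPN (0.23), SKA3 (0.0032) and AURKB (0.062) turned positive, and under loess CENPH (0.69), CENPM (0.39), CENPN (0.33) and AURKB (0.049). Averaging all probe sets of a gene gave 35 falls (29.7% of all genes) and 0 rises (40.9%), turned CENPT to 0.21, lost SPC24 (-0.048, adjusted p = 0.772) and gained CENPN (-0.71, adjusted p = 0.000699). With probe sets of unique target only, BUB3 turned to 0.65, the 1 rise of that setting, as its bright probe sets were left out. CENPH, near 0, turned to 0.044 without cells replicate 2, 0.018 without microvesicles replicate 2, 0.049 without cells replicate 3 and 0.13 without microvesicles replicate 4, within a range of -0.12 to 0.13. The cause of these turns was otherwise not tested. Leaving out each array in turn gave 35 to 36 falls (29.0% to 31.6% of all genes), 0 rises (30% to 36.2%) and medians of -1.28 to -1.03. For the controls it gave an ACTB difference of 0.60 to 0.83 and a GAPDH difference of 0.12 to 0.20. The control differences were 0.35 for ACTB (exact permutation p = 0.0556) and 0.076 for GAPDH (0.302) after loess, and 0.33 (0.0556) and 0.060 (0.5) after quantile normalization. Correlations of deviations between same-numbered arrays, over 19775 genes, were -0.028 to 0.12, and 4 of the 5 cell arrays matched their own number best. Whether same-numbered arrays came as pairs was not tested. The replicate block gave 36 falls (30.6% of all genes), 0 rises (35.0%) and a median of -1.14. Median centring, level filters, the variance trend and the rank sum test changed no call of a gene they tested, and array weights left PMF1 past no threshold (adjusted p = 0.0719). Reading each probe set by itself was added after seeing the data.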
